A study of Mus musculus with 96 samples.

Results

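The comparison of RevScapTKO with RevDKO hepatocytes at ZT10 rests on 6 of the 96 RNA sequencing libraries of the series, 3 of each genotype, chosen by genotype and sampling time alone. The libraries came from hepatocytes, the metabolic cells that make up most of the liver, isolated from male C57BL/6J mice that ate a diet rich in fat and sucrose during 4 weeks and were sampled 10 h after lights on (zeitgeber time 10, ZT10, with lights off at ZT12). Both groups carried floxed Nr1d1 and Nr1d2 (REV-ERBα and REV-ERBβ, repressors of the circadian clock) and received AAV-TBG-CRE, a virus whose TBG promoter drives Cre recombinase in hepatocytes. The label ReverbhDKO is written RevDKO here, and the label Reverb/ScaphTKO, in which a floxed Scap allele was deleted as well, is written RevScapTKO. Control mice, shown beside both groups, were floxed mice whose virus carried GFP in place of Cre. Adding the Scap deletion to the REV-ERB deletions asks which transcripts of REV-ERB-deficient hepatocytes differ when SCAP is missing too at this hour. Since Cre came from a virus, undeleted hepatocytes and other liver cells may have remained in an isolate, and in bulk RNA fewer cells of a type and less RNA per cell cannot be told apart.

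SCAP is a sterol-sensing escort protein of the endoplasmic reticulum. When sterols are low it carries the membrane-bound SREBP transcription factors to the Golgi, where the proteases encoded by Mbtps1 and Mbtps2 release their active part, and when sterols are high the INSIG proteins hold SCAP and SREBP back. In liver, SREBP-1c (from Srebf1) is known for driving fatty acid synthesis and SREBP-2 (from Srebf2) for driving cholesterol synthesis and uptake, and each also raises transcription of Srebf genes and of Insig1.

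Values are RPKTM, the authors' name for an RPKM multiplied by 10, after quantile normalization across the 36 hepatocyte libraries of Control, RevDKO and RevScapTKO. Sequencing depth is unknown, since that step gave every library the identical set of values. Correlations of log2(RPKTM + 1) ranged from 0.975 to 0.988 between replicates and from 0.956 to 0.985 between the 2 groups. Log2 differences are RevScapTKO minus RevDKO on the log2(RPKTM + 1) scale with their standard errors (SE), which understates the change of low genes, and a gene was called where its limma p adjusted by Benjamini-Hochberg over all 13326 genes tested was under 0.05. Values of single libraries are listed in the order of replicates 1, 2 and 3. The labels do not say that the 3 libraries of a group came from separate mice, so p-values measure the spread between these libraries.

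The labels were first set against the targeted genes. Scap stood at 638, 321 and 483 in RevDKO and at 280.2, 82.8 and 172 in RevScapTKO, beside 501, 475 and 424 in Control. The 3 RevScapTKO values all lay below the RevDKO values, and Scap fell by 1.54 ± 0.29 (SE, adjusted p = 0.0018). RevScapTKO replicate 2 held the least Scap of the 6 libraries. Nr1d1 measured 326, 131 and 106 in RevDKO and 216, 92.2 and 139.6 in RevScapTKO, and Nr1d2 404, 379 and 396 and 365, 382 and 393; neither separated the groups (adjusted p = 0.894 and 0.976). Control held 102, 81 and 75.7 for Nr1d1 and 405, 422 and 348 for Nr1d2, not above the range of the 2 deleted groups for Nr1d1 and overlapping them for Nr1d2, so these whole-transcript values do not show the REV-ERB deletions at this hour, whatever part of each gene was removed. Arntl (Bmal1), the clock activator that REV-ERBs repress, was at 145, 117 and 122 in RevDKO and 117, 117 and 96.7 in RevScapTKO against 4.62, 4.21 and 10.6 in Control. All 6 deleted libraries were far above Control for Arntl, and the deleted groups overlapped each other (log2 difference -0.21 ± 0.26, adjusted p = 0.791).

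The hepatocyte label held for all 6 libraries, in which albumin (Alb) alone made up 3.84% to 10.8% of the summed values. After quantile normalization the highest-ranked value holds 10.8% of the sum in every library. These shares therefore follow the rank of Alb and are not its measured share of the RNA. Markers of macrophages and monocytes were highest in RevScapTKO replicate 2, where the 22 markers summed to 4748, against 1320 and 1515 in the other RevScapTKO libraries and 547 to 1389 in RevDKO. Among these 6 that library stands apart, and values without it are given beside the main counts and several of the lists that it moves. Over all 36 hepatocyte libraries the sum ranged from 338 to 8457, so a higher one occurred at another time.

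Of the 13326 genes tested, 121 were called (0.908%), 98 of them lower in RevScapTKO (0.735%) and 23 higher (0.173%), and 1691 (12.7%) had an unadjusted p under 0.05. In all 121 the 3 values of one genotype lay entirely on one side of the other 3, a separation seen in 8.22% of all genes tested in the higher direction and in 8.04% in the lower. The falls were large, with 54 of the 98 at 4-fold or more on the log2(RPKTM + 1) scale. Of the 98, 39, among them the deleted Scap, belonged to 4 lists of SREBP machinery, cholesterol synthesis, cholesterol uptake and fatty acid synthesis. These lists hold 10, 21, 13 and 24 of the 13326 genes tested and were chosen with earlier results of these data known. In 94 of the 98, all Control values were also above all RevScapTKO values, and in 15 of the 23 rises all were below. Both counts are of genes chosen by their RevScapTKO values, and the share over all genes tested was not counted. Without RevScapTKO replicate 2 the count was 71 (65 lower and 6 higher), and a fit with the macrophage marker level as a covariate called 82 (73 lower and 9 higher).

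**Figure D1:**
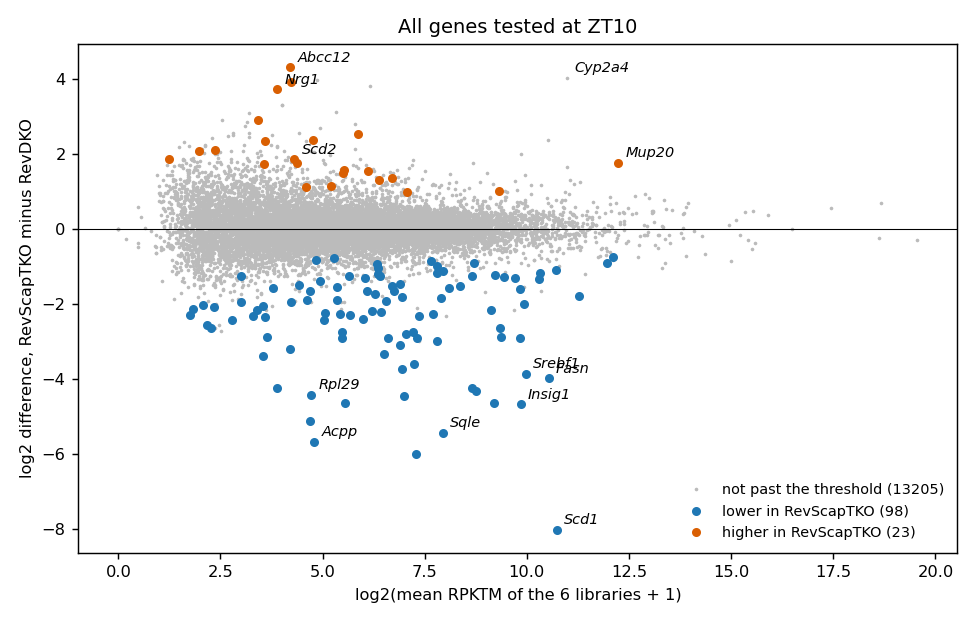
Log2 difference between RevScapTKO and RevDKO at ZT10 (y axis) against the log2 of the mean RPKTM of the 6 libraries plus 1 (x axis), 1 point per gene tested. Coloured points are the 98 genes called lower and the 23 called higher, and the deepest falls include the lipid genes Scd1, Sqle and Insig1.

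The SREBP machinery fell in its transcription factors and in the feedback protein INSIG1, and not in the proteases. Of 10 members, 4 were lower and none higher, with a median of -0.16 beside 0.00 over all genes tested. Scap itself, deleted by design, is among the 4. Srebf1 measured 1978, 1532 and 2117 in RevDKO and 179.6, 78.4 and 142 in RevScapTKO, beside 3076, 4059 and 4734 in Control. No RevScapTKO library came near the lowest RevDKO value, and Srebf1 fell by 3.87 ± 0.38 (adjusted p = 1.12e-08). Srebf2 measured 242, 108 and 175 and 61.3, 62.2 and 54.3, a smaller gap that still left the groups apart (log2 difference -1.47 ± 0.28, adjusted p = 0.00225). Insig1, itself an SREBP target that retains SCAP in the endoplasmic reticulum, measured 1383, 2180 and 1775 in RevDKO and 79.1, 48.7 and 79.1 in RevScapTKO and fell by 4.68 ± 0.34 (adjusted p = 2.14e-11). Named outside the selection rule, Insig2, which has the same retention role, gave -0.19 (adjusted p = 0.819), and the protease genes Mbtps1 and Mbtps2 gave -0.13 and 0.20 (adjusted p = 0.863 and 0.847). When only the 6 ZT10 libraries entered the fit, 2 of the 4 calls were left; Scap and Srebf2 then had adjusted p = 0.324 and 0.1025. Scap was also no longer called without RevScapTKO replicate 2 (log2 difference -1.07, adjusted p = 0.0533).

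**Figure D2:**
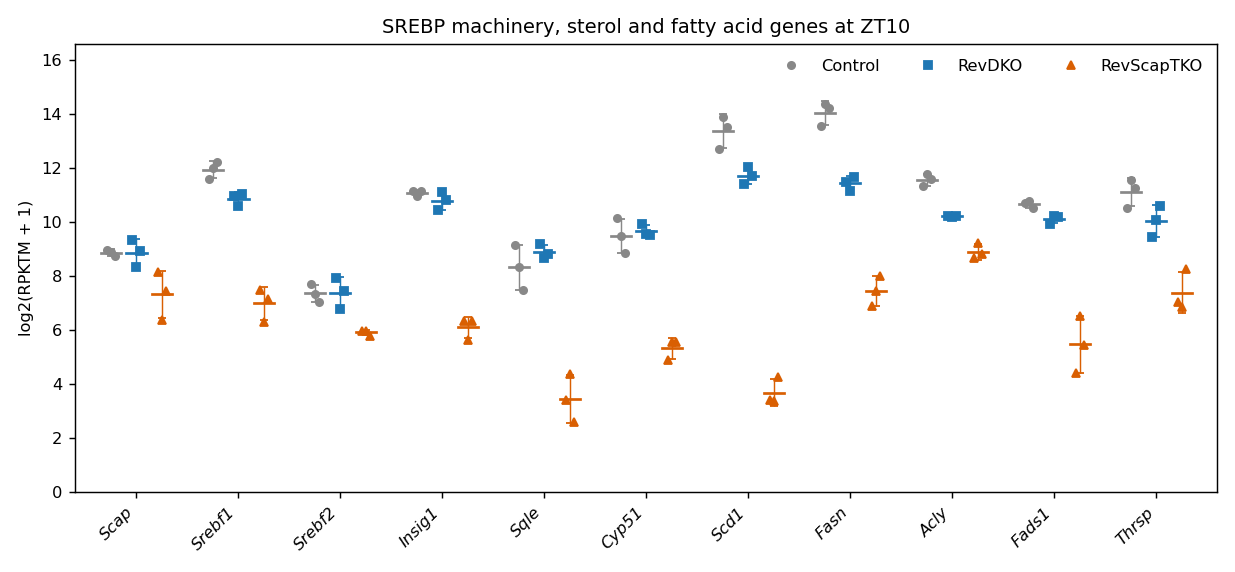
Values of 11 genes in the 9 ZT10 libraries of Control (circles), RevDKO (squares) and RevScapTKO (triangles), as log2(RPKTM + 1) on the y axis, with the mean (bar) and SD (whisker) of 3 libraries. In every gene shown the RevScapTKO libraries lie below the RevDKO libraries, with the widest gap in Scd1. Srebf1, Fasn, Scd1, Acly and Fads1 stand lower in RevDKO than in Control without overlap.

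Cholesterol synthesis was the list with the highest share of falls. Of its 21 enzymes, 18 were lower and none higher, with a median log2 difference of -2.76. The lowered members spanned the pathway. At its entry, Acat2, which joins the first acetyl units, was called lower. In the isoprenoid steps, the log2 difference was -2.76 in Mvk, -2.93 in Pmvk and -4.64 in Mvd. Idi1, the isomerase that makes the active allylic unit, measured 49.8, 50.1 and 48 in RevDKO and 0, 1.32 and 0.282 in RevScapTKO, where it was at or near 0. Fdps, which builds farnesyl pyrophosphate, measured 263, 215 and 250.1 and 7.87, 10.1 and 12.5 and fell by 4.46 ± 0.33 (adjusted p = 4.44e-11).

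At the committed sterol steps, the log2 difference was -2.28 in Fdft1, squalene synthase, and -2.34 in Lss, which closes the sterol rings. Lss overlaps an antisense gene that was also called, so its value is uncertain. Sqle, the oxygenase between them and a second control point of the pathway, fell most of the list on the log2(RPKTM + 1) scale, which holds back the change of low genes such as Idi1. Its values were 578, 409 and 453 in RevDKO and 9.56, 19.5 and 5.09 in RevScapTKO, with no overlap and a log2 difference of -5.44 ± 0.48 (adjusted p = 1.60e-09). Cyp51, the lanosterol demethylase, measured 967, 750 and 735 and 28.6, 45.9 and 46.3 (log2 difference -4.33 ± 0.36, adjusted p = 5.39e-10). Msmo1 followed at -4.25 and Nsdhl at -3.74, both removing methyl groups from the sterol. Of the late reductases and desaturases, Tm7sf2 stood at -2.91, Dhcr7 at -2.75, Hsd17b7 at -1.86 and Sc5d at -1.33, all called. Ebp and Ggps1, named outside the selection rule, were among the 3 members not called and gave -0.59 and 0.38 (adjusted p = 0.683 and 0.8). Hmgcs1 fell by 2.10, but the row used for it maps to an unplaced piece of chromosome 13 at low values (10.5, 5.59 and 5.76 in RevDKO), so its level is uncertain.

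The promoters of these genes were read from RefSeq (build GRCm38.p6, 250 bases before to 50 after each start), since a sterol regulatory element core and a CCAAT box, the site of the NF-Y factor that acts with SREBPs, are features known from such promoters. Of the 32 members called lower in the cholesterol and fatty acid synthesis lists, 26 had a promoter. The core TCACNCCAC, on either strand, was in 1 of the 26 genes (3.85%), in 1.46% of the 10422 tested genes with a promoter and in 1.44% of all 27025 genes with one. CCAAT, on either strand, was in 22 of the 26 (84.6%), against 42.8% of tested and 41.1% of all genes, and CACGTG, an E-box, in 5 of the 26 (19.2%), against 11.6% and 8.09%. Each motif was counted by itself, so a base can lie in more than 1 of them, the shares are descriptions of letters in these windows, and no test was run. Shown are the promoter with the element core, Hmgcs1, and the 3 promoters with CCAAT whose genes fell most, chosen after the values were seen: Idi1, Mvd and Cyp51. Capitals mark CCAAT, its reverse complement ATTGG and, in Hmgcs1, the element core.
Hmgcs1 (chr13:119690101-119690400, plus strand): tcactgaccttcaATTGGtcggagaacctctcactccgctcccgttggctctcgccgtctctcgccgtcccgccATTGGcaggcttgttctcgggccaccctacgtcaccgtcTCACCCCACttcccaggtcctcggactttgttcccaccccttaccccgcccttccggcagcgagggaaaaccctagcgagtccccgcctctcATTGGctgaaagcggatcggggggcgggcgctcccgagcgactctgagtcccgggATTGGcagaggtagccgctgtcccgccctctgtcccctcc
Idi1 (chr13:8885356-8885655, plus strand): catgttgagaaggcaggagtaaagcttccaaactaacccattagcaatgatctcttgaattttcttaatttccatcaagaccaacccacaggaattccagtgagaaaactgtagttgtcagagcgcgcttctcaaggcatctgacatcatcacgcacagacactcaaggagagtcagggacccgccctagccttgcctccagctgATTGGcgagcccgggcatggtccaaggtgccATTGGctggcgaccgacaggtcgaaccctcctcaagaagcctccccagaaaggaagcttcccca
Mvd (chr8:122443373-122443672, minus strand): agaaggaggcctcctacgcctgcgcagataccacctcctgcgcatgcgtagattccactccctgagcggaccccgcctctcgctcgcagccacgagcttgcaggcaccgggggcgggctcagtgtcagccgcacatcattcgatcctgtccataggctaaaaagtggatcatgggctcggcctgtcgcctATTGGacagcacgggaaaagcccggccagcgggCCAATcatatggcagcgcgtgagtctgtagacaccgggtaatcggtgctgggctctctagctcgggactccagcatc
Cyp51 (chr5:4104648-4104947, minus strand): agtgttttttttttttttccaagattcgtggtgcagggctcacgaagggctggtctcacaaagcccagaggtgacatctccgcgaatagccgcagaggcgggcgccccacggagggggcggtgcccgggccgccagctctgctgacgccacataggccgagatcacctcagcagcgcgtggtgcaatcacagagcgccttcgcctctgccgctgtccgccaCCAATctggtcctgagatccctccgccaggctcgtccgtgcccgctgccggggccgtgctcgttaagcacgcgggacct
The Hmgcs1 promoter held the core once, beginning 137 bases before the start, among 4 ATTGG boxes; Idi1 held ATTGG 45 and 14 bases before the start, Mvd 1 box in each orientation, and Cyp51 a single CCAAT 29 bases before the start.

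Genes that take up or move cholesterol were called in part. Of 13 members, 3 were lower and none higher, with a median of -0.10. Stard4, a carrier that moves sterols between membranes, measured 349, 443 and 388 in RevDKO and 70.9, 30.3 and 51.8 in RevScapTKO, without overlap (adjusted p = 1.73e-09). The endosomal exporters Npc1 and Npc2 were among the 10 members not called.

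Fatty acid synthesis, elongation and desaturation fell in 14 of 24 members and rose in 1, with a median of -1.62. Scd1, which introduces the double bond into stearate, had the largest fall on the log2(RPKTM + 1) scale. A gene listed at 0, such as Acpp (-5.68 on this scale), has no defined fold in plain RPKTM. Scd1 measured 2722, 4139.7 and 3334 in RevDKO and 9.69, 9.26 and 18.3 in RevScapTKO, beside 6608, 15272 and 11553 in Control. The RevScapTKO values were far below those of both other genotypes, and Scd1 fell by 8.03 ± 0.52 (adjusted p = 2.41e-12). Fasn, the fatty acid synthase, measured 2838, 2274 and 3247 in RevDKO and 117, 172 and 253 in RevScapTKO and fell by 4.00 ± 0.50 (adjusted p = 2.39e-06). At this hour Fasn was already lower in RevDKO than in Control (11909, 21193 and 19004), and the RevScapTKO libraries were lower again.

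Several genes of acetyl-CoA supply and carboxylation were called lower as well. Acly, the citrate cleaving enzyme, measured 1181, 1166 and 1193 in RevDKO and 402, 599 and 448 in RevScapTKO (log2 difference -1.31 ± 0.33, adjusted p = 0.042). The log2 difference was -2.16 in Acss2, which activates acetate, -1.18 in the citrate carrier Slc25a1 and -1.84 in Aacs, which activates acetoacetate. Acacb, the mitochondrial acetyl-CoA carboxylase, measured 205, 124 and 175 and 11.8, 33.4 and 22.4 and fell by 2.93 ± 0.49 (adjusted p = 3.86e-04). Its cytosolic counterpart Acaca, named outside the selection rule, averaged 434 and 175 over 3 libraries; the groups did not overlap, but it was not called (-1.37 ± 0.42, adjusted p = 0.13). Mid1ip1, which promotes assembly of these carboxylases, differed by -3.34 ± 0.68 and Thrsp, a lipogenic nuclear protein, by -2.65 ± 0.67 (adjusted p = 0.00605 and 0.0481).

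The enzymes that lengthen, desaturate or activate fatty acids were split. Fads1, the delta-5 desaturase of polyunsaturated fatty acids, measured 968, 1200 and 1162 in RevDKO and 20.5, 91.4 and 42.8 in RevScapTKO, a log2 difference of -4.64 ± 0.44 (adjusted p = 9.21e-09). Its neighbour Fads2, the delta-6 desaturase, stood at -2.02, and the elongase Elovl5 of the same pathway at -2.90. Acsl3 and Acsl5, which activate fatty acids, stood at -3.62 and -1.11, and all 4 were called. Acsl3 overlaps Utp14b, which stood at -3.10, on the same strand, where counting by strand would not part them, so this pair is uncertain. Acss2 overlaps the antisense gene Acss2os, which stood at -2.24. Whether reads were counted by strand is not stated, so that pair is uncertain too. Elovl6, which elongates palmitate, was lower in all 3 RevScapTKO libraries without being called (-1.40 ± 0.62, adjusted p = 0.342).

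Scd2, the other stearoyl-CoA desaturase, went the opposite way to Scd1. It measured 11.4, 2.1 and 12.5 in RevDKO and 20.5, 40.4 and 26 in RevScapTKO, near 23.7, 17.1 and 19.2 in Control, and rose by 1.84 ± 0.45 (adjusted p = 0.0347). The rise was not called in 7 of the alternatives run, among them the fit without RevScapTKO replicate 2, the library with the highest Scd2 and the most macrophage marker signal. In the separate macrophage table Scd2 averaged 54.9 RPKTM in Control at ZT10, against 20.02 in the Control hepatocytes, and the part of other cells in its rise was not tested.

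Without RevScapTKO replicate 2, 17 of the cholesterol synthesis members and 10 of the fatty acid synthesis members were called lower. With the macrophage marker covariate the counts were 19 and 10, and the 12 largest falls were called in every alternative run.

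**Figure D3:**
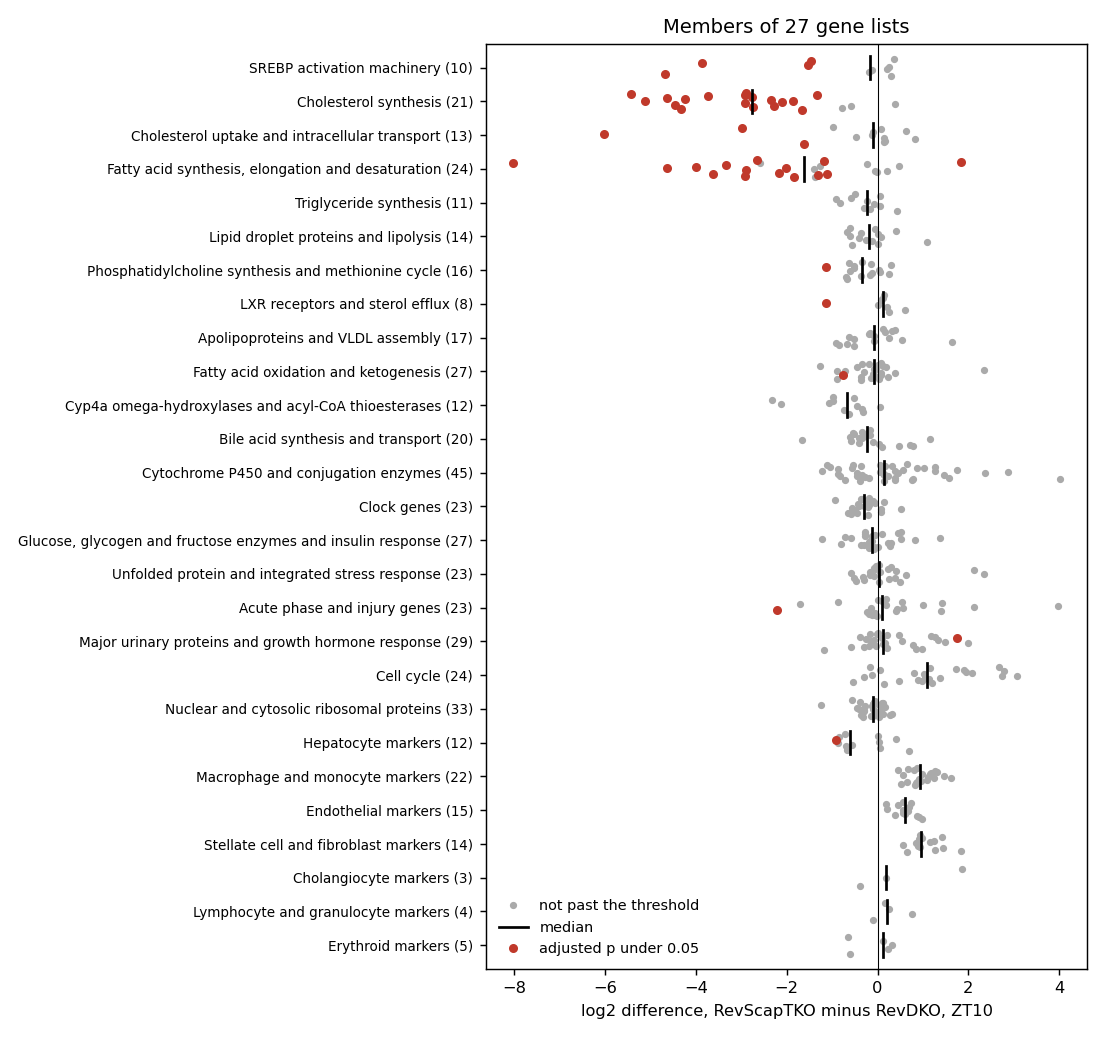
Log2 difference between RevScapTKO and RevDKO at ZT10 (x axis) for each tested member of 27 gene lists (rows, number tested in brackets), red where the adjusted p was under 0.05, with the median as a black bar. The called members gather in the SREBP, cholesterol and fatty acid rows, and the macrophage, endothelial and stellate marker rows lie entirely to the right of 0 without a called member.

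Lists of neighbouring lipid pathways held few calls. In phosphatidylcholine synthesis and the methionine cycle, 1 of 16 was lower and none higher (median -0.35), and among LXR receptors and sterol efflux genes the same gene was the only call of 8 (median 0.13). That gene, Lpcat3, which loads polyunsaturated fatty acids onto phospholipids, measured 394, 308 and 319 in RevDKO and 177, 117 and 173 in RevScapTKO. The groups were clearly apart, and it fell by 1.14 ± 0.18 (adjusted p = 1.15e-04). Among fatty acid oxidation and ketogenesis genes 1 of 27 was lower and none higher (median -0.07).

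No member of 11 triglyceride synthesis genes (median -0.24), 14 lipid droplet genes (median -0.19), 17 apolipoprotein and VLDL assembly genes (median -0.09), 12 Cyp4a and acyl-CoA thioesterase genes (median -0.68) or 20 bile acid genes (median -0.23) passed limma's adjusted threshold. At an unadjusted p under 0.05, where 12.7% of all genes tested lay, these lists held 1, 4, 3, 4 and 4 members. Gpam, the first acyltransferase of triglyceride synthesis, measured 2282, 2064 and 2033 in RevDKO and 1175, 1160 and 1273 in RevScapTKO; the groups did not overlap, at -0.82 ± 0.23 (adjusted p = 0.0861). The omega-hydroxylase Cyp4a10 measured 119, 253 and 419.8 and 61.6, 63.1 and 37.7, lower in every RevScapTKO library with a wide spread in RevDKO (-2.12 ± 0.56, adjusted p = 0.0595). Its relative Cyp4a14 gave -2.34 ± 0.81 (adjusted p = 0.188). Nearest the threshold among the bile acid genes were Abcb4, the phospholipid exporter of bile, at 0.77, and Cyp7a1, the rate-limiting enzyme of bile acid synthesis, with 1902, 1636 and 2221 in RevDKO and 932, 265 and 872 in RevScapTKO (adjusted p = 0.299 and 0.14).

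Outside lipid metabolism the lists were nearly free of calls. None of the 23 clock genes passed limma's adjusted threshold (2 at an unadjusted p under 0.05, against 12.7% of all genes tested), although 19 of the 23 had a lower mean log2 value in RevScapTKO (median -0.29); Cry2 gave -0.50 and Bhlhe40 -0.59 (adjusted p = 0.382 and 0.393). None of 27 glucose, glycogen and fructose genes (4 unadjusted, median -0.11), 23 unfolded protein and stress response genes (4, median 0.02), 33 ribosomal protein genes (2, median -0.10) or 45 cytochrome P450 and conjugation genes (13, median 0.14) was called either. Nearest the threshold in these were the glutathione transferases Gstp1 at 1.02 and Gsta3 at -1.22 (adjusted p = 0.0638 and 0.0738), and Pfkfb1, which sets fructose 2,6-bisphosphate, at -1.23 (adjusted p = 0.0795). Among 23 acute phase and injury genes 1 fell, Hamp2, a relative of the iron hormone hepcidin, with 84.1, 183 and 156 in RevDKO and 22.3, 45.5 and 21.6 in RevScapTKO (-2.21 ± 0.55, adjusted p = 0.0424). Of the 12 hepatocyte markers 1 was called lower, with a list median of -0.62, and that call was lost in 8 of the alternatives run. Without RevScapTKO replicate 2 the median of these markers was -0.32.

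Among 29 major urinary protein and growth hormone response genes 1 rose and none fell (median 0.13). With all libraries 17 of the 29 were higher, against 6734 of all 13326 genes tested. Without RevScapTKO replicate 2 the median was 0.84, with 26 of the 29 higher, against 7003 of all 13326. The list median was -1.08 at ZT4, 0.61 at ZT16 and 0.07 at ZT22. At all times 6 of the 29 kept their sign, against 5754 of all genes tested. Mup20, which encodes darcin, a male urinary pheromone, measured 2136, 2186 and 2159.9 in RevDKO and 4956, 9356 and 8287 in RevScapTKO. All RevScapTKO libraries were above RevDKO, which itself was above Control (1385, 1091 and 1097), and Mup20 rose by 1.75 ± 0.35 (adjusted p = 0.00429). It was not called without RevScapTKO replicate 2. Other Mup genes are close copies whose reads can be shared, so the level of a single one is uncertain.

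The remaining large falls lay outside the lists. Acpp, a secreted phosphatase, measured 52, 76.9 and 31.6 in RevDKO and was listed at 0 in all 3 RevScapTKO libraries (adjusted p = 2.17e-14). Rpl29, a ribosomal protein gene with many processed copies, measured 33.4, 70 and 44.9 and 0.658, 2.18 and 1.11 (log2 difference -4.43 ± 0.33, adjusted p = 4.44e-11), and its level is uncertain for that reason. Chrna4, a nicotinic receptor subunit, measured 42.8, 18.5 and 19.6 and 0, 1.53 and 0 (adjusted p = 6.78e-06). Other falls, chosen after their values were seen, were Rdh11, a retinol dehydrogenase, at -2.81, Tmem97, a sterol-binding membrane protein, at -1.92, Erg28, a scaffold of sterol synthesis, at -1.53, and Dbi, the acyl-CoA binding protein, at -1.30. Mmab, which processes cobalamin, stood at -2.31 and Aldoc, an aldolase, at -3.20. H2-Q10, a secreted MHC class I gene of liver, measured 4180.1, 3544 and 3856 and 1005, 1273 and 1039.9 and fell by 1.81 ± 0.17 (adjusted p = 9.21e-09).

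The rises were fewer, and 9 of the 23 had a RevDKO mean under 5 RPKTM. A gene was tested where at least 3 of the 36 libraries were over 5. A gene low in RevDKO and Control could therefore enter through its RevScapTKO libraries alone, and how many did was not counted. Of the rises named next, Abcc12 and Nrg1 were under 5 in every RevDKO and Control library at ZT10. Fam25c was too, apart from 5.55 in RevDKO replicate 2. Col6a5, described with the genes around Scap, averaged 0.507 in RevDKO and 0.351 in Control. For a gene that entered this way, the p-value rests on the same values that let it in. Abcc12, an ABC transporter, was listed at 0 in all 3 RevDKO libraries and measured 6.84, 88.4 and 9.99 in RevScapTKO (adjusted p = 0.00608). Nrg1, a ligand of ERBB receptors, measured 0, 1.54 and 0 in RevDKO and 5.28, 62.2 and 13.7 in RevScapTKO (adjusted p = 0.0157). In both genes RevScapTKO replicate 2 carried most of the signal. Fam25c measured 0, 5.55 and 0.647 and 43, 28.5 and 27.8, evenly high across RevScapTKO, and rose by 3.92 ± 0.65 (adjusted p = 3.46e-04). Ncoa4, the receptor that delivers ferritin for breakdown, measured 34.1, 39.3 and 29.4 and 83.4, 99.9 and 121 and rose by 1.53 ± 0.26 (adjusted p = 3.68e-04). Slc40a1, the iron exporter ferroportin and chosen after its values were seen, measured 409.8, 486 and 366 and 778, 961 and 792 (1.01 ± 0.23, adjusted p = 0.0228). Slc6a9, a glycine carrier, rose by 1.30 and Slc16a6, a ketone body carrier, by 1.34 (adjusted p = 0.00815 and 0.00686). Angptl2, a secreted angiopoietin-like protein, rose by 1.14, the chemokine Ccl6 by 1.74, and Itpripl2 by 1.55.

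Each of the 22 macrophage and monocyte markers was higher on average in RevScapTKO (median log2 difference 0.94), none of them called by limma and 9 at an unadjusted p under 0.05, against 12.7% of all genes tested; all 22 were detected. Each of the 22 was also higher on average at the other times, with medians of 1.26 at ZT4, 1.02 at ZT16 and 1.21 at ZT22. At ZT10 without RevScapTKO replicate 2, the median was 0.47 and 20 of the 22 were higher. The ratio of the mean sums then went from 2.31 to 1.30. Clec4f, a Kupffer cell lectin, measured 239.7, 88.5 and 189.6 in RevDKO and 223, 783 and 309 in RevScapTKO, and Cd74, a chaperone of MHC class II, 65.8, 26.9 and 78.2 and 98.5, 458 and 91.8. RevScapTKO replicate 2 was highest in both. The 15 stellate cell and fibroblast markers summed to 1102 to 1937 in RevDKO and 2589 to 4301 in RevScapTKO, without overlap (exact two-sided permutation p = 0.1, the smallest that 3 against 3 allow). The 15 endothelial markers summed to 2043 to 3085 and 2735 to 4637 (exact permutation p = 0.2), and the macrophage sums given above had an exact permutation p of 0.3. All 14 tested stellate markers and all 15 endothelial markers were higher on average in RevScapTKO, with medians of 0.95 and 0.61, and none was called; 10 and 6 passed an unadjusted p under 0.05. Without RevScapTKO replicate 2 these medians were 0.71 and 0.34. The 8 cholangiocyte markers summed to 80.8 to 114 in RevDKO and 85.9 to 263 in RevScapTKO, and the 17 lymphocyte and granulocyte markers to 12.2 to 19.2 and 11.5 to 34.1. The 6 erythroid markers summed to 183 to 308 and 71.8 to 245. None of the 6 had a higher mean RPKTM in RevScapTKO, while by log2 difference 3 of the 5 tested were higher (median 0.12). In each of these 3 lists 1 marker was listed at 0 in all 6 libraries.

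Of the 23 genes called higher, 6 (26.1%) were at least 2 log2 units higher in Control macrophages than in Control hepatocytes at ZT10 in their separate tables, against none of the 98 called lower and 5.54% of the genes tested. These 6 were Ccl6, Itpripl2, March1, Myof, Nlrp3 and Slc40a1. Without RevScapTKO replicate 2, 3 of the 12 largest rises were called, Fam25c, Ncoa4 and Slc16a6, and with the macrophage marker covariate 3, Fam25c, Mup20 and Ncoa4. The part of macrophage RNA in the other rises was not tested.

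Cell cycle genes were higher on average in 20 of 24 members (median 1.09), with 11 lying apart in the higher direction, against 8.22% of all genes tested, and none called by limma. An unadjusted p under 0.05 was reached by 10, against 12.7% of all genes tested. Without RevScapTKO replicate 2 the median was 0.61, and the ratio of the mean sums went from 2.53 to 1.499. The 24 genes summed to 255 to 308 in RevDKO and 398, 1282 and 440 in RevScapTKO replicates 1, 2 and 3 (exact two-sided permutation p = 0.1). Over all 36 hepatocyte libraries their sum ranged from 220 to 2615. The replication licensing genes Mcm5 and Mcm6 were nearest the threshold. Mcm5 measured 6.97, 3.06 and 5.3 in RevDKO and 29.7, 35.2 and 12.8 in RevScapTKO (2.08 ± 0.54, adjusted p = 0.059), and Mcm6 16.8, 8.89 and 12.3 and 41.4, 100.2 and 30.8 (1.95 ± 0.56, adjusted p = 0.0948). Which cells carried these transcripts cannot be told from bulk RNA.

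**Figure D4:**
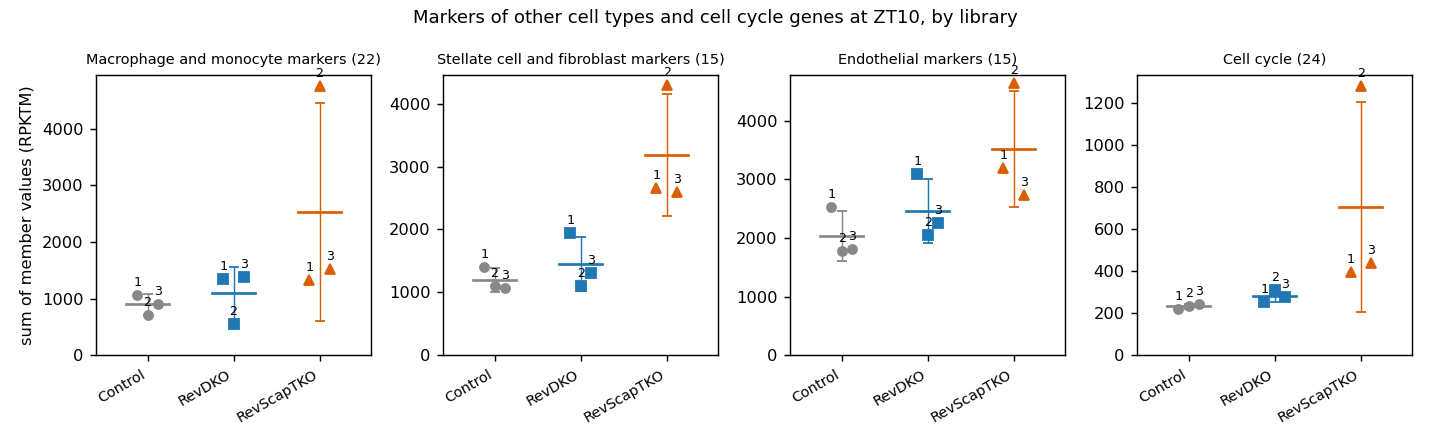
Summed RPKTM (y axis, from 0) of macrophage, stellate cell and endothelial markers and of cell cycle genes in each ZT10 library of Control, RevDKO and RevScapTKO, with the replicate number beside each point, the mean (bar) and the SD (whisker). RevScapTKO replicate 2 is the highest library in all 4 panels, at 4748 for the macrophage markers.

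The share of called genes was higher around Scap than elsewhere. Scap lies on mm9 chromosome 9 at 110235792 to 110287453 on the plus strand, and 11 of the 180 genes tested within 10 Mb of it, measured between the lower coordinates of the genes, were called (6.11%), 10 of them lower and 1 higher. Over the rest of chromosome 9 the share was 0.55% (3 of 545) and on all other chromosomes 0.849% (107 of 12601). This grouping was noticed after the values were seen, and no test was run on it. Leaving out Scap itself, the 10 genes lay from -6.05 Mb to 4.07 Mb of Scap on that measure, and none belongs to a lipid list. Among them, from the proximal side, were Acpp, Mrpl3, Col6a5, Rpl29, Abhd14a, Abhd14b, Sema3b, Gnat1 and Glb1.

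Glb1, the lysosomal beta-galactosidase, measured 45.8, 64.2 and 80.8 in RevDKO and 13.7, 15.4 and 18.6 in RevScapTKO (-1.90 ± 0.34, adjusted p = 0.00106). Abhd14b, a hydrolase, measured 287, 568 and 352 in RevDKO and 191, 68.5 and 157 in RevScapTKO, its neighbour Abhd14a stood at -2.35, and Col6a5, a collagen chain at low values, was the single rise (0.293, 0.9 and 0.327 in RevDKO and 4.01, 4.81 and 7.12 in RevScapTKO). ScapKO hepatocytes, which lack Scap and not the REV-ERBs and sit in a table normalized apart, held 0, 1.53 and 0 for Acpp, 37, 37.6 and 30.6 for Glb1 and 21.4, 14.3 and 15.4 for Rpl29 at ZT10. For Abhd14b they held 576, 627 and 603, against 365, 454 and 375 in Control of the other table. What sets these genes apart was not tested.

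**Figure D5:**
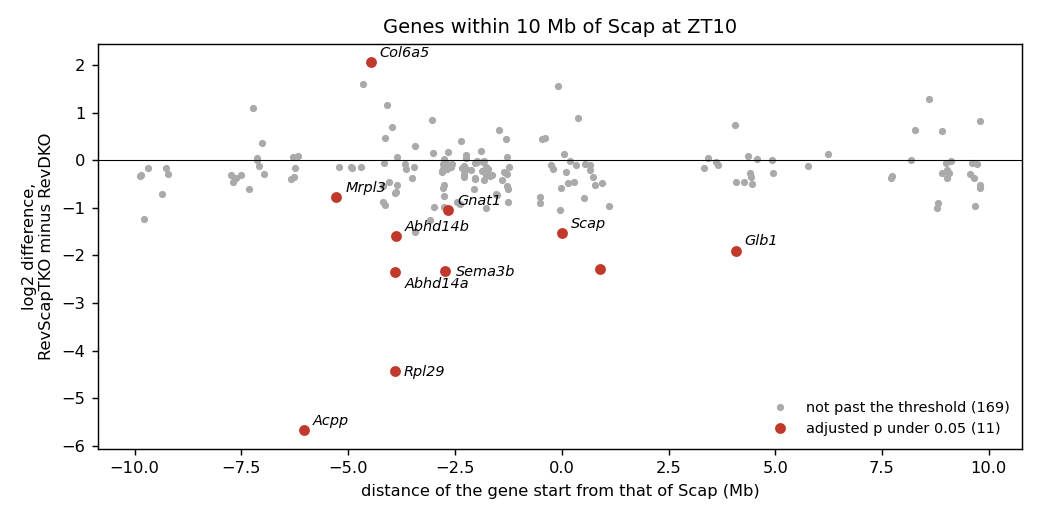
Log2 difference between RevScapTKO and RevDKO at ZT10 (y axis) for the 180 genes tested within 10 Mb of Scap, against the distance of the gene's lower coordinate from that of Scap in Mb (x axis). The 11 called genes are red; 10 lie below 0, with Acpp and Rpl29 lowest, and Col6a5 lies above.

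The same difference was available at ZT4, ZT16 and ZT22 from 18 other libraries. No gene passed limma's adjusted threshold for a ZT10 difference unlike the mean of the other 3 (0% of 13326), and 481 had an unadjusted p under 0.05, so no gene is called particular to ZT10; a pseudocount of 0.1 gave 1 call and no filter on low values 3. The smallest p belonged to Rasa4 (difference of differences -1.95 ± 0.49), Crybg2 (1.96), Itga3 (1.01), Pigk (0.79) and Sap130 (-1.17), each with an adjusted p of 0.999. Crybg2 alone of these was called at ZT10 itself, with 1.4, 0.682 and 2.9 in RevDKO and 19.5, 19 and 14.4 in RevScapTKO, the latter close to 27.3, 19.2 and 11.7 in Control.

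Of the 98 genes called lower at ZT10, 95 were also lower at all 3 other times, and 20 of the 23 called higher were higher at all 3, while 5754 of all 13326 genes kept 1 sign throughout. All 21 cholesterol synthesis members kept their sign, with medians of -2.97 at ZT4, -2.76 at ZT10, -2.17 at ZT16 and -2.08 at ZT22. In fatty acid synthesis the medians were -2.20, -1.62, -2.59 and -2.68 in the same order, and 21 of 24 kept their sign. Fasn differed by -4.31 at ZT4, -4.98 at ZT16 and -5.40 at ZT22, and Scd1 by -8.70 at ZT4, -9.25 at ZT16 and -9.68 at ZT22. The RevDKO level of Fasn averaged 2786 ± 488 (SD, n = 3) at ZT10, 2867 ± 300.5 at ZT4, 11839 ± 4511 at ZT16 and 13366 ± 5114 at ZT22, so that the ZT4 and ZT10 levels lay within each other's spread and below those of the later times. Acly differed by -2.19 at ZT4, -2.59 at ZT16 and -2.66 at ZT22 against -1.31 at ZT10, and the difference of differences was not called (limma adjusted p = 0.999). All 22 macrophage markers, 13 of 14 stellate cell markers, 12 of 15 endothelial markers and 19 of 24 cell cycle genes kept their sign throughout.

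ScapKO hepatocytes at ZT10 give the levels with the REV-ERBs in place, as a description across tables. The 3 libraries held 309, 379.6 and 273 for Scap, 1030.3, 1661 and 447 for Srebf1 and 150.3, 265 and 209 for Insig1. Scd1 stood at 356, 425 and 1149 and Fasn at 1185, 1250.2 and 1337, where RevScapTKO held 9.69, 9.26 and 18.3 and 117, 172 and 253. Sqle stood at 28.1, 16.6 and 54.6. Since the tables were normalized apart, these gaps were not tested. For these libraries the title names hepatocytes while the cell type field names macrophages, and the title was followed.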

How the data were processed

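Hepatocyte RNA was depleted of ribosomal RNA and sequenced as stranded libraries; the authors aligned reads to mm9 with STAR and used HOMER to count over RefSeq transcripts, versions and strand setting being not given in the sources used here. The deposited values are an RPKM multiplied by 10 (RPKTM), quantile normalized by the authors across 36 libraries, so depth is unknown and precision rests on replicates. For each of 25095 symbols the transcript (of 42322) with the highest mean was taken, and 13326 with at least 3 libraries over 5 were tested. log2(RPKTM + 1) was fitted with limma 3.58.1 (R 4.3.3, trend) as 12 means of genotype and time, with Benjamini-Hochberg adjustment over all genes and a threshold of 0.05. Scripts were tested on simulated data. Summaries and exact tests used scipy 1.17.1 under Python 3.11.15.

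Named genes were Scap, Nr1d1, Nr1d2 and Arntl, the 12 largest rises and falls among called, non-overlapping genes with a group mean of at least 20 (unnamed gene models left out), per list the 4 largest called changes (all in 3 SREBP-related lists) or the 2 smallest p, and the 5 smallest interaction p. Members and all 27 lists were chosen with earlier results of these data known. Coordinates are mm9 as in the files; promoters are RefSeq GRCm38.p6 and were matched by symbol. Same-numbered libraries did not deviate together. The ScapKO and macrophage tables were used for levels only. Alternatives are given in the closing section. Some genes are not reported here.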

Additional observations from a re-analysis of the deposited data

Results flagged for a closer look

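Sap130, a subunit of the SIN3 corepressor complex, was lower in all 3 RevScapTKO libraries than in all 3 RevDKO libraries at ZT10 (70, 25.2 and 66.2 against 112, 80.8 and 79.7, log2 difference -0.86) and higher in all 3 at ZT22 (log2 difference 0.47). The opposite directions of this pair of times were not tested against each other; against the mean of the other 3 times the ZT10 difference had an adjusted p of 0.999 by limma, and Sap130 was not called at ZT10 (adjusted p = 0.135). Groups of 3 were not tested for a single library apart from the rest.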

How the results depend on the processing

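The count of 121 called genes was 111 to 118 under another pseudocount (0.1 or 5), filter, or centring, 99 with the 24 libraries of both genotypes, 136 with every transcript tested, 82 with the macrophage marker covariate and 64 with only the 6 ZT10 libraries, of which 60 were among the 121. Fewer libraries to estimate the spread is part of that fit's construction. Leaving out 1 library gave 71 to 211 calls: 77 without RevDKO replicate 2, 71 without RevScapTKO replicate 2 and 211 without RevScapTKO replicate 1, and the share of rises, 19.01% in all, was 32.5% without RevDKO replicate 1, 30.3% without RevScapTKO replicate 1 and 8.45% without RevScapTKO replicate 2; the cause was not tested. With the replicate number as a replicate block, 134 genes were called (111 shared); same-numbered libraries correlated at 0.0452, -0.0417 and 0.0401, so the numbers do not pair them, and not every library correlated best with its own number. The interaction count of 0 became 1 with a pseudocount of 0.1 (Maff) and 3 without a filter (Bpifb9a, Mir7115 and Tnfsf14), and stayed at 0 when any 1 library was left out. The 12 largest falls were called under every alternative, and the 12 largest rises in 3 to 12. Of the named genes, no called gene changed sign under these alternatives, and the uncalled ones that did were Csf3r (-0.32 with the covariate, -0.085 to 1.21 when 1 library was left out, lowest without RevDKO replicate 2), S100a8 (-0.27 with the covariate, -0.025 to 0.78 when 1 library was left out, negative without RevScapTKO replicate 2 or 3) and Nr1d1 (-0.55 to 0.25 when 1 library was left out, positive without RevDKO replicate 1 or RevScapTKO replicate 2). The share of macrophage-high genes among rises was 34.8% at a limit of 1 log2 unit (9.37% of all tested) and 26.1% at 3 (3.36%). Quantile normalization would hide a shift of most transcripts, and 3 libraries a group limit what small differences can show.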

Other observations

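Cyp2a4, a steroid hydroxylase of liver chosen after its values were seen, measured 41, 26.1 and 40.1 in RevDKO and 67.8, 11707 and 248 in RevScapTKO. RevScapTKO replicate 2 was far above the others listed, while the gene was not called (4.02 ± 1.55, adjusted p = 0.26). Without that library its log2 difference was 1.86. Cyp2a4 has close copies whose reads can be shared, so its level is uncertain. Its log2 differences at the other times were 6.70 at ZT4, 3.60 at ZT16 and 4.10 at ZT22. Apoa4, an intestinal and hepatic apolipoprotein, also stood out in RevScapTKO replicate 2, with 741, 737 and 606 in RevDKO and 729, 7485 and 1849 in RevScapTKO (adjusted p = 0.334), as did the proliferation marker Mki67, with 8.96, 6.78 and 7.01 and 19.8, 246 and 38.1 (adjusted p = 0.135). In the same library the ribosomal protein gene Rps20 was low, with 54.3, 82.6 and 68 in RevDKO and 55.2, 5.59 and 64.1 in RevScapTKO (adjusted p = 0.188).

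Ppard, a fatty acid sensing nuclear receptor chosen after its values were seen, measured 10.5, 15.5 and 17.7 in Control, 100.3, 84.6 and 107 in RevDKO and 62.3, 13.7 and 30.7 in RevScapTKO. Both deleted groups were thus apart, RevDKO from Control and RevScapTKO from RevDKO (-1.66 ± 0.37, adjusted p = 0.0157). Crybg2 showed the opposite order, with 27.3, 19.2 and 11.7, 1.4, 0.682 and 2.9 and 19.5, 19 and 14.4 in the same genotypes.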
